A study of Homo sapiens with 2 samples.

Results

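RAB GTPases are small membrane switches. When a RAB protein is bound to GTP it sits on a particular membrane through prenyl groups on its C-terminal cysteines and recruits effectors that move, tether and fuse vesicles. Exchange factors (GEFs) load the GTP, GTPase-activating proteins (GAPs) end the signal, and GDP dissociation inhibitors (GDIs) carry the switched-off protein through the cytosol. Different RABs mark the Golgi, endosomes, lysosomes and secretory vesicles, and in epithelial and ovarian cancer cells they are known for their part in polarity, receptor recycling and secretion. The genes described here are every entry of the gene tables whose symbol is RAB followed by digits and an optional letter. There were 61 such genes among the 26255 gene symbols measured. The rule used the name alone and no measured value.

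RNA came from OVSAHO, an established human line of high-grade serous ovarian cancer. Per the labels and the submitters' design text, one culture (OVSAHO-A2-siA4) had stable SMARCA2 with knockdown of SMARCA4 and the other (OVSAHO-Ctrl-siNC, genotype WT) was the control, and both were kept in 25 µM carboplatin, a DNA-crosslinking platinum drug, for 2 days. SMARCA2 and SMARCA4 are the alternative ATPases of the SWI/SNF chromatin remodeller. Each group had 1 library, so no p-value or error between cultures can be given, every difference is between these 2 libraries, and without untreated cells nothing can be said of carboplatin itself. Whether the cultures are single clones is not stated. Below, the culture with SMARCA2 raised and SMARCA4 knocked down is called the perturbed one.

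Levels are FPKM (fragments per kilobase of transcript, scaled to sequencing depth), a per-length scale on which genes can be compared. A gene passed if either library reached 1 FPKM. It was called higher with a log2 ratio of FPKM + 1 (perturbed over control) of 1 or above and lower with a ratio of -1 or below. Folds are ratios of FPKM without that pseudocount, and the interval after a fold is a 95% exact binomial (Clopper-Pearson) counting interval from estimated fragment numbers. It covers counting error alone and is too narrow as a statement about cultures. The estimated depths were 8860000 fragments in the perturbed library and 9050000 in the control, so 1 FPKM of a 2000-base transcript was about 15.9 and 16.3 fragments. SMARCA2 was at 2.60 and 0.205 FPKM and SMARCA4 at 4.49 and 27.9 FPKM in the perturbed and control libraries, both in the direction of the submitters' series text. The labelled cell type was checked on fixed markers: 9 of 10 serous carcinoma markers passed, with PAX8 at 42.1 and 21.9 FPKM and KRT7 at 119 and 540 FPKM, while MUC16 was listed at 0 and at 0.0607 FPKM. The serous markers summed to 1143 and 1656 FPKM. None of 6 fibroblast markers (sums 0.0985 and 0.154 FPKM) and none of 5 endothelial markers (0.512 and 0.394 FPKM) passed. Of 6 leukocyte markers (11.4 and 35.2 FPKM) 1 passed, the lysosomal protein gene CD68, at 11.1 and 34.9 FPKM, while PTPRC, CD3E and MS4A1 were at 0 in both. The part of the KRT7 and CD68 differences in the RAB results was not tested, and in bulk RNA fewer cells of a type and less RNA per cell cannot be told apart.

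As a family the RAB genes kept nearly the same total. Their summed FPKM was 1592 in the perturbed library and 1738 in the control, which was 0.184% and 0.182% of all FPKM. Of the 61 genes, 45 passed and 16 stayed below 1 FPKM in both libraries. Of the 45, 2 were higher, RAB31 and RAB6B, and 2 were lower, RAB18 and RAB39B. Over all 11785 genes that passed, 7.85% were called higher and 7.61% lower, so that 15.5% lay past 2-fold, against 8.89% (4 of 45) of the RAB genes. The median log2 ratio of the 45 was -0.20, beside -0.06 for all genes. There were 17 RAB genes with a ratio above 0 and 28 below, against 5484 and 6301 of all genes, which also leaned below 0. Scaling each library to the same sum moved the median of all genes to 0.08 and the RAB median to -0.10, with 20 of 47 RAB genes above 0 and 27 below, and the same 4 genes were called. The split of all called genes moved from 50.8% higher to 64.7% higher. Summed over all genes, FPKM had a fold of 0.907, so folds between that and 1, such as those of RAB34, RAB24 and the summed RAB6 and RAB22A with RAB31 families, change direction with this scaling.

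**Figure D1:**
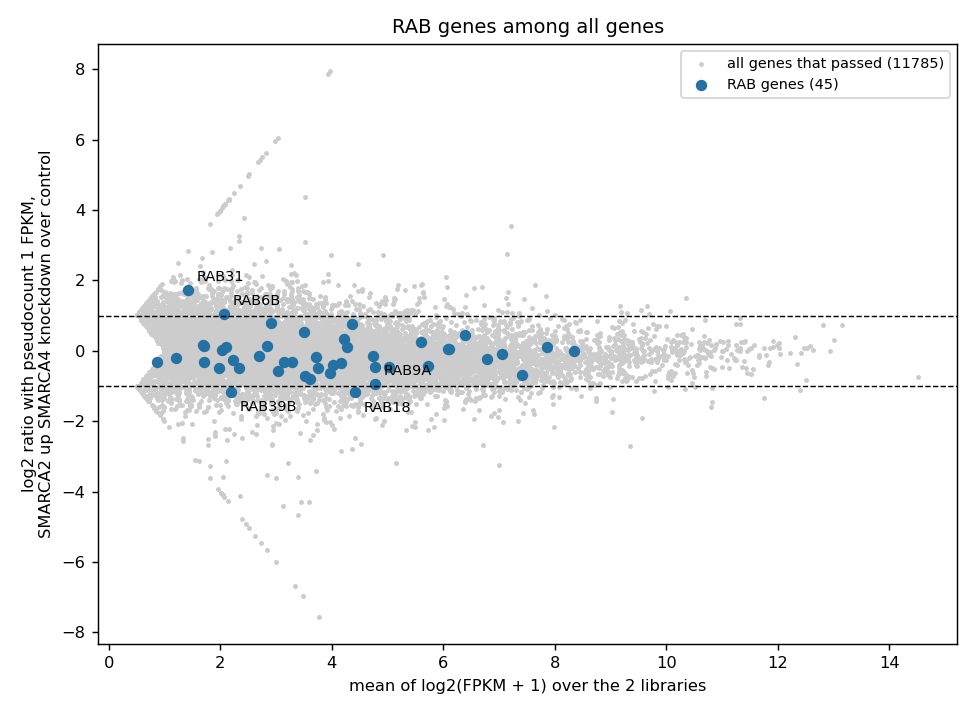
Each point is a gene that passed 1 FPKM, with its mean log2(FPKM + 1) over the 2 libraries on the horizontal axis and its log2 ratio (pseudocount 1 FPKM, perturbed over control) on the vertical axis. The 45 RAB genes are blue, all 11785 genes are grey, and the dashed lines mark a log2 ratio of 1 and -1; RAB31 and RAB6B lie above the band and RAB18 and RAB39B below it.

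The middle of the RAB distribution was also narrower. The interquartile range of the log2 ratios was -0.46 to 0.11, against -0.51 to 0.44 for all genes, and 31 of 45 (68.9%) lay within 0.5 of 0, against 52.4% of all genes. These shares describe the 2 libraries and were not matched on expression level. Across the 45 genes the log2 levels of the 2 libraries had a Pearson correlation of 0.96 (0.94 across all genes that passed), a description over genes that share the same 2 libraries. A few RAB genes made most of the family's RNA: the 6 most abundant took 64.0% of the summed RAB FPKM in the perturbed library and 62.4% in the control.

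**Figure D2:**
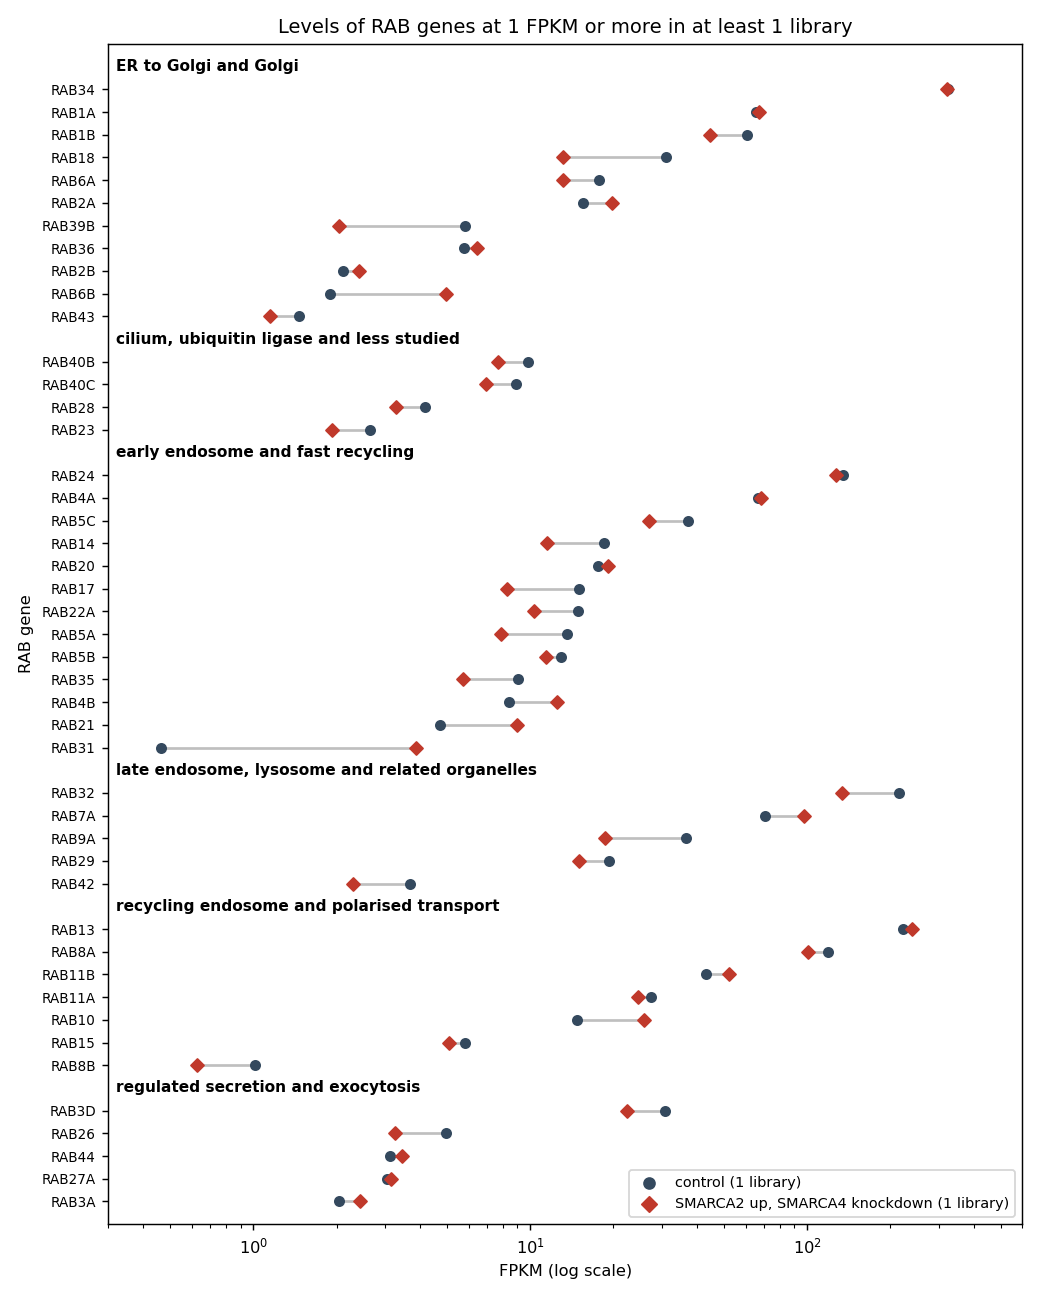
FPKM on a log axis for the 45 RAB genes that passed, with 1 point for each library (circle, control, and diamond, perturbed) joined by a line. Each gene was assigned to 1 group by membrane or role, though some RABs have several. RAB34, RAB13, RAB32, RAB24, RAB8A and RAB7A are the most abundant, and the longest lines belong to RAB31, RAB39B, RAB6B and RAB18.

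RAB31, an endosomal RAB that works between the trans-Golgi network and endosomes, differed most. It was at 3.87 FPKM in the perturbed culture against 0.466 in the control, or about 132 and 16 fragments. It was therefore 8.30-fold higher (5.0 to 15.2). Its nearest relative is RAB22A, which acts on early and recycling endosomes and shares 72.2% of its amino acids. RAB22A was at 10.3 FPKM and 14.9 FPKM, a fold of 0.691 (0.630 to 0.757), which is inside the 2-fold band and in the opposite direction. In the control RAB31 made 3.02% of the RNA of the pair, and in the perturbed library 27.3%. Their sum was 14.2 and 15.4 FPKM, a fold of 0.921.

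RAB6B showed a similar arrangement against RAB6A, but the log2 ratios differed by 1.45, against 2.23 for RAB22A and RAB31. RAB6A, the ubiquitous Golgi RAB of retrograde transport, was at 13.1 FPKM in the perturbed culture against 17.7 in the control, a fold of 0.743 (0.622 to 0.886). RAB6B, its brain-enriched relative with 89.4% identity, was at 4.97 FPKM and 1.90 FPKM, 2.62-fold higher (2.06 to 3.40). The summed RAB6 family also includes RAB6C. RAB6B made 9.67% of the RAB6 RNA in the control and 27.4% in the perturbed library, while the sum was 18.1 and 19.6 FPKM. The RAB6B call was close to the threshold, at a log2 ratio of 1.04. It was 0.81 once cubic trends against GC content, transcript length and level had been taken out over all genes, inside the 2-fold band. RAB6A was then at -0.13 instead of -0.40, while RAB31 and RAB22A were at 1.57 and -0.69.

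Coding sequence of RAB6A (chromosome 11) and RAB6B (chromosome 3) is shown because it decides whether sequencing reads can tell such close paralogs apart. The lines give 54 bases around the codons of the switch II motif DTAGQE, from GENCODE 29 transcripts, with capitals where the base differs from the paralog. Both begin at base 184 of the coding sequence.
RAB6A: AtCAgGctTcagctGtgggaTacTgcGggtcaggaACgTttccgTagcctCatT
RAB6B: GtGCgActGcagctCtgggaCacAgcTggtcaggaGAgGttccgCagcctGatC
Within these 54 bases the paralogs differ at 15. Over their full transcripts neither RAB6A and RAB6B nor RAB22A and RAB31 share a run of 50 bases.

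The last 45 coding bases, before the stop codon, show the prenylation signal of both pairs (RAB22A on chromosome 20, RAB31 on chromosome 18), with the cysteine codons in capitals.
RAB6A: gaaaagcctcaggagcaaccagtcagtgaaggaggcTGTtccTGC
RAB6B: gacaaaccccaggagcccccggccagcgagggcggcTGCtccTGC
RAB22A: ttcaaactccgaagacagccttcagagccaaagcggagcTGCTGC
RAB31: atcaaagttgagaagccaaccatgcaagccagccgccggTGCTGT
RAB6A and RAB6B end in cysteine, any residue, cysteine, and RAB22A and RAB31 end in 2 adjacent cysteines. Each paralog pair thus carries the same kind of lipid anchor. RAB6C, an intronless copy of RAB6A, does share sequence with it: 512 of its 3026 runs of 50 bases occur in RAB6A transcripts. RAB6C was listed at 0 in both libraries, and how the authors treated reads that map to both is not given in the sources used here, so the RAB6A level is uncertain.

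**Figure D3:**
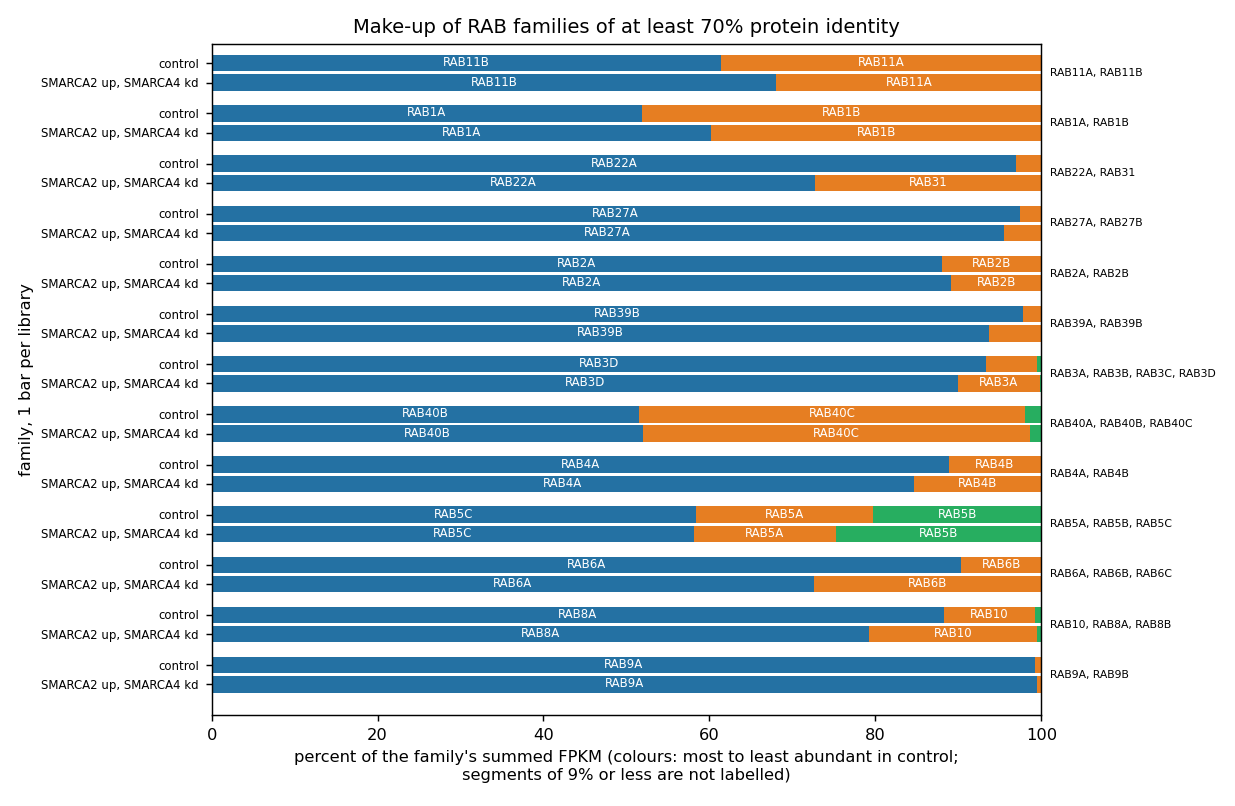
Each bar is the summed FPKM of a family of RAB genes with at least 70% protein identity, set to 100 percent, with 1 bar for each library and 1 colour for each member in order of abundance in the control. RAB31 takes 27.3% of its pair in the perturbed library and 3.02% in the control, and RAB6B 27.4% and 9.67%, while RAB2A and RAB2B, RAB40B and RAB40C, and RAB9A hold nearly constant shares.

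Paralogs were compared across the whole family. Of 25 pairs with at least 70% identity, 13 had both members past 1 FPKM. The 2 log2 ratios of a pair differed by a median of 0.48, by less than 0.5 in 8 of the 13 pairs and by 1 or more in 3. The third of these was RAB10 with RAB8B, which share 71.0% of their residues. RAB10, which drives exocytic and GLUT4-type vesicle delivery, was at 25.8 FPKM and 14.8 FPKM, 1.74-fold (1.55 to 1.96). Its log2 ratio was 0.76, and 0.97 with the trends removed, inside the 2-fold band in both cases. RAB8B was near the floor of the filter, at 0.628 FPKM and 1.02 FPKM, with an interval of the fold from 0.357 to 1.0. At the other end, RAB40B and RAB40C had folds of 0.779 and 0.778. These RAB40 transcripts share 6 runs of 50 bases, and reads from those runs cannot be told apart.

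The group of endoplasmic reticulum to Golgi and Golgi RABs had 18 measured genes, of which 11 passed. In it 1 was higher (RAB6B) and 2 were lower (RAB18 and RAB39B). These 3 are 27.3% of the 11, against 15.5% of all genes past 2-fold, and 11 genes are too few to compare. RAB34, a Golgi and macropinocytosis RAB also needed for cilia, was the most abundant RAB gene of all, at 321 FPKM in the perturbed culture against 324 in the control, a fold of 0.991 (0.941 to 1.04). RAB1A and RAB1B both run transport from the endoplasmic reticulum to the Golgi. RAB1A was at 67.3 and 65.4 FPKM, and RAB1B at 44.5 and 60.8 FPKM, a fold of 0.732 (0.664 to 0.807). RAB1A and RAB1B are 93.5% identical, with no shared run of 50 bases, and RAB1A made 60.2% of their RNA in the perturbed library and 51.8% in the control.

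RAB18, which works at the endoplasmic reticulum and on lipid droplets, was one of the lower genes. It was at 13.2 FPKM in the perturbed culture against 31.1 in the control, about 547 and 1319 fragments, and so 2.36-fold lower (2.14 to 2.61). Its log2 ratio was -1.18, and -0.95 with the trends removed, which ends the call. RAB39B, a neuronal RAB linked to autophagy and encoded on the X chromosome, was at 2.05 FPKM and 5.80 FPKM, 2.84-fold lower (2.11 to 3.87). About 60 fragments stood behind it in the perturbed culture and 174 in the control, and with the trends removed its log2 ratio was -1.18. Its relative RAB39A was at 0.136 and 0.133 FPKM, about 2 fragments in each library. RAB2A and RAB2B are RABs of the early Golgi. RAB2A was at 19.8 and 15.6 FPKM, and RAB2B was far lower at 2.41 and 2.11 FPKM. RAB36, a relative of RAB34, was at 6.45 and 5.79 FPKM, and RAB43 at 1.15 and 1.46 FPKM. Exons of RAB1A and RAB2B overlap genes on the opposite strand, CEP68 (6.90 and 12.9 FPKM) and TOX4 (16.3 and 26.8 FPKM), whose reads cannot be told apart there because the libraries do not mark strand. RAB43 shares exons with the readthrough gene ISY1-RAB43 (2.38 and 3.40 FPKM).

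All 13 genes of the early endosome and fast recycling group passed, which no other group did, with 1 higher, RAB31, and none lower (7.69% past 2-fold, against 15.5% of all genes). With 13 genes these shares cannot be set against each other. RAB24, an atypical RAB of autophagy, was the most abundant at 127 and 135 FPKM, followed by RAB4A, a RAB of fast recycling, at 68.5 and 66.7 FPKM. The counting intervals of both folds included 1. The 3 RAB5 genes, which define the early endosome, all had a ratio below 0: RAB5C was at 26.8 and 37.2 FPKM, RAB5B at 11.4 and 12.9 FPKM, and RAB5A at 7.88 and 13.6 FPKM. RAB5A had a fold of 0.580 (0.462 to 0.726) and RAB5C one of 0.721 (0.618 to 0.840). For RAB5B it was 0.885, with an interval from 0.761 to 1.03 that included 1. The RAB5 sum was 46.2 and 63.8 FPKM, and RAB5C kept 58.1% and 58.4% of it.

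Several other endosomal genes lay between a fold of 0.5 and 1. RAB17, an epithelial RAB of polarised recycling, was at 8.29 FPKM and 15.1 FPKM, a fold of 0.55 (0.437 to 0.686). RAB14, at 11.5 and 18.5 FPKM, and RAB35, which returns receptors to the surface, at 5.74 and 9.06 FPKM, had folds of 0.620 and 0.634. RAB21, a RAB of integrin traffic, went the other way. It was at 8.93 FPKM and 4.73 FPKM, 1.89-fold (1.71 to 2.08) and just outside the higher call at a log2 ratio of 0.79. RAB21 has the longest annotated transcript of the family, 15546 bases, and with the trends removed its log2 ratio was 0.28. RAB4B, at 12.5 and 8.39 FPKM, had a fold of 1.49 (1.09 to 2.03), and RAB20, at 19.1 and 17.6 FPKM, a fold of 1.08.

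The recycling endosome and polarised transport group had 7 of 9 genes past the filter and none called. Over all genes 15.5% lay past 2-fold, and 7 genes are too few to set against that share. RAB13, a RAB of tight-junction traffic, was the second most abundant RAB gene in both libraries at 240 and 222 FPKM. RAB8A, which carries cargo to the basolateral membrane and the cilium, was at 100.6 FPKM and 118.7 FPKM, a fold of 0.847 (0.802 to 0.895), and overlaps exons of HSH2D (1.72 and 0.815 FPKM). Of the recycling RABs, RAB11A was at 24.5 and 27.2 FPKM. RAB11B, at 52.1 and 43.3 FPKM, was the larger part of the pair in both. RAB11B shares exons with an antisense transcript, RAB11B-AS1 (6.88 and 9.69 FPKM), and these libraries do not mark strand. RAB15 was at 5.09 and 5.81 FPKM. RAB25, the epithelial relative of RAB11 that is known as an amplified gene in ovarian cancer, was listed at 0 in the perturbed library and at 0.25 FPKM, about 1.57 fragments, in the control.

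Of the late endosome and lysosome group, 5 of 7 genes passed and none was called (15.5% over all genes), too few to compare. The median log2 ratio was -0.50, in number the lowest of the groups, and 4 of the 5 genes had a ratio below 0. That median is the value of RAB42 alone, whose fold interval (0.371 to 1.08) included 1. The groups therefore cannot be ranked on it. RAB7A, the RAB of late endosomes and lysosomes, was the exception, at 97.8 FPKM in the perturbed culture against 70.8 in the control, a fold of 1.38 (1.29 to 1.49). RAB32, a RAB of lysosome-related organelles and mitochondria, was at 134 FPKM and 216 FPKM, a fold of 0.619 (0.576 to 0.665). RAB9A, which returns mannose 6-phosphate receptors from late endosomes to the Golgi, was at 18.6 FPKM and 36.7 FPKM, 1.97-fold lower (1.66 to 2.35). It was just outside the lower call at a log2 ratio of -0.94, and at -0.63 with the trends removed. RAB29, a partner of the kinase LRRK2, was at 15.04 and 19.25 FPKM, and RAB42 at 2.30 and 3.68 FPKM. RAB38, the pigment-cell relative of RAB32, was at 0.628 and 0.176 FPKM on about 7.04 and 2.01 fragments, a ratio of 3.58 with an interval from 0.681 to 35.3. RAB7A against RAB32 and RAB9A is thus a difference of direction inside 1 group, with none of the 5 genes that passed beyond 2-fold.

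**Figure D4:**
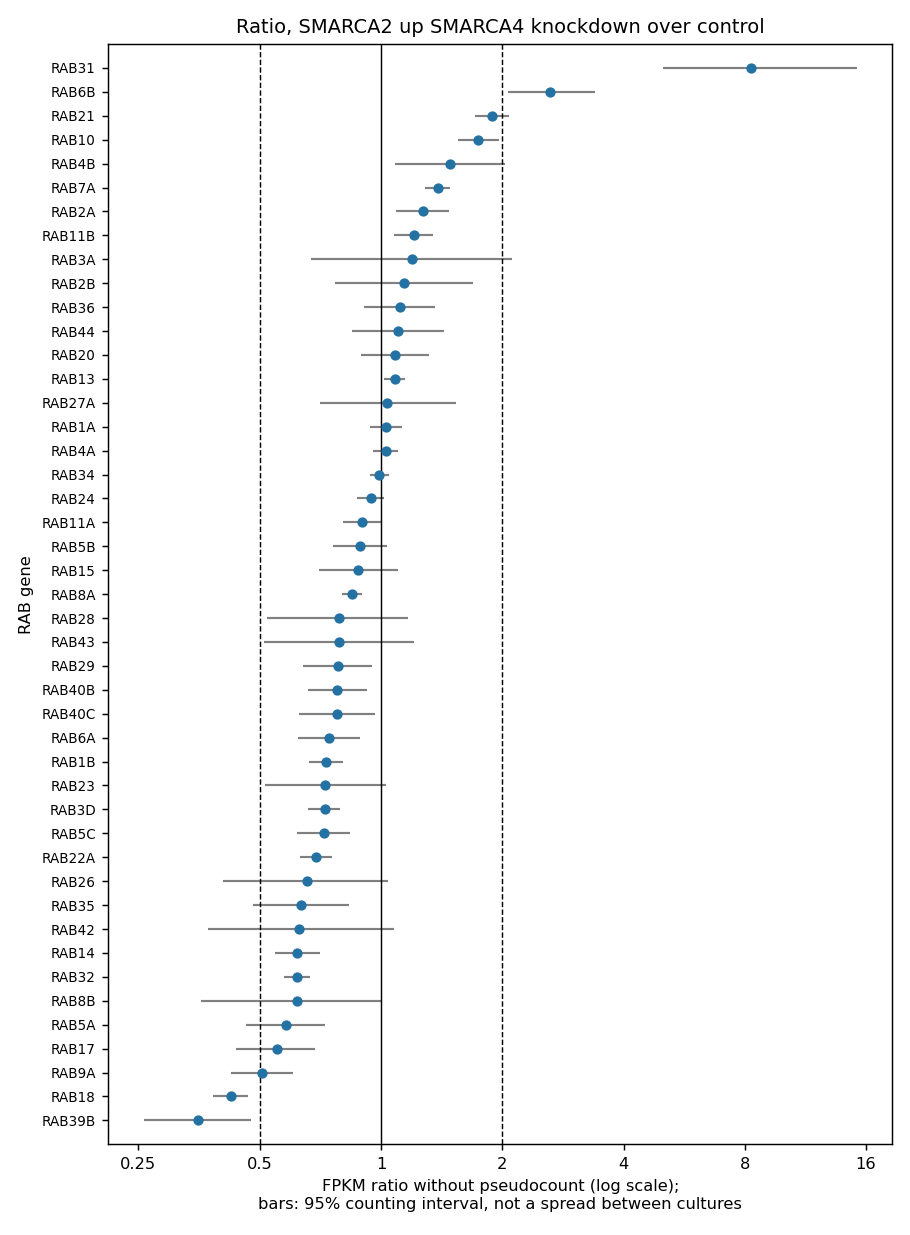
Ratio of FPKM (perturbed over control, no pseudocount, log axis) for the 45 RAB genes that passed, in order, with 95% counting intervals that do not include differences between cultures. The solid line marks a ratio of 1 and the dashed lines 0.5 and 2, with RAB31 at the top and RAB39B at the bottom.

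The regulated secretion group was weakly expressed apart from RAB3D: 5 of 9 genes passed and none was called (15.5% of all genes past 2-fold). These 5 are too few to compare with that share. RAB3D, a RAB of secretory granules, was at 22.3 FPKM and 30.8 FPKM, a fold of 0.724 (0.661 to 0.793), and held 90.0% and 93.3% of the RNA of its 4-gene family. It overlaps exons of the abundant TMEM205 (1360 and 2069 FPKM) on the same strand and of CCDC159 (29.5 and 11.4 FPKM) on the opposite strand, so reads from either gene may count toward it. RAB3A was at 2.43 and 2.04 FPKM, RAB3B at 0.0535 and 0.157 FPKM, and RAB3C was listed at 0 in both. RAB27A, which docks secretory lysosomes and exosome-bearing endosomes, was at 3.14 and 3.04 FPKM, and RAB27B at 0.149 and 0.0812 FPKM. RAB26 was at 3.25 and 4.97 FPKM, and RAB44, an unusually large RAB with an extended N-terminal part, at 3.44 and 3.12 FPKM. No gene of this group with an FPKM of 1 or more in a library differed beyond its counting interval except RAB3D.

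The remaining genes are RAB23, a negative regulator of hedgehog signalling at the cilium, RAB28, a ciliary and retinal RAB, and the RAB40 genes, whose products join cullin ubiquitin ligases. Of 5, 4 passed and none was called, against 15.5% of all genes past 2-fold, and 4 genes are too few to compare. RAB40B was at 7.68 and 9.86 FPKM and RAB40C at 6.91 and 8.87 FPKM. RAB23 was at 1.93 and 2.65 FPKM and RAB28 at 3.28 and 4.16 FPKM. RAB23 overlaps exons of BAG2 (22.01 and 30.4 FPKM) on the opposite strand, which these libraries do not mark. All 4 had a ratio below 0, from -0.32 to -0.27 on the log2 scale, close together. The fold intervals of RAB23 (0.515 to 1.03) and RAB28 (0.522 to 1.17) included 1. Those of RAB40B (0.659 to 0.923) and RAB40C (0.625 to 0.967) did not.

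Across the 16 genes below 1 FPKM in both libraries, the highest value was 0.975 FPKM, that of RAB33A in the control. Of these genes 5 were listed at 0 in the perturbed library and 2 in the control, and RAB3C and RAB6C at 0 in both. RAB41, RAB37 and RAB25 were above 0 in the control alone, on about 3.01, 2.03 and 1.57 fragments. RAB30, at 0.944 and 0.705 FPKM on a long transcript, rested on about 80 and 61 fragments. RAB33B, a Golgi and autophagy RAB, was at 0.431 and 0.602 FPKM, RAB12 at 0.35 and 0.285 FPKM and RAB19 at 0.451 and 0.147 FPKM. RAB9B, at 0.0941 and 0.276 FPKM, and RAB40A, at 0.197 and 0.386 FPKM, rested on under 10 fragments in each library. At this depth 3 fragments of a 2000-base transcript are 0.188 FPKM (perturbed) and 0.184 FPKM (control), and a longer transcript reaches that number at a lower FPKM. RAB3B, for example, had about 6 and 18 fragments at 0.0535 and 0.157 FPKM.

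Features of the encoded proteins were taken from translated GENCODE 29 coding sequences of all 61 genes. The proteins had a median length of 216 residues, and 59 of 61 had 194 to 281, the exceptions being RAB36 at 333 and RAB44 at 1021. The nucleotide-binding P-loop motif was found in 57, the DTAGQE motif of switch II in 50 and the guanine-specificity motif (asparagine or threonine, lysine, any residue, aspartate) in 53. The genes without DTAGQE included the atypical RAB24 and RAB20, and RAB32 with RAB38. At the C-terminus 20 proteins ended in cysteine, any residue, cysteine, 14 in adjacent cysteines, 15 in adjacent cysteines followed by up to 3 residues, and 11 had a single cysteine. RAB6C had no cysteine in its last 4 residues and is in none of these 4 classes. The genes that passed had median log2 ratios of -0.16, -0.15, -0.12 and -0.31 in these 4 classes. RAB31 belongs to the adjacent class, RAB6B and RAB39B to the cysteine, any residue, cysteine class and RAB18 to the single class, so the called genes were spread over 3 of these sequence classes.

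The machinery around the RABs was followed in lists drawn up by role. Of 52 measured GEFs, 42 passed, 4 were higher and 2 lower, with a median log2 ratio of 0.01. That is 14.3% past 2-fold, near the 15.5% of all genes. DENND5A, a GEF for RAB39 that also binds RAB6, was at 8.56 FPKM and 2.43 FPKM, 3.52-fold higher (2.79 to 4.46). DENND1A, a GEF for RAB35, was 3.66-fold higher, and TRAPPC12, a subunit of the TRAPP complexes that activate RAB1, 2.58-fold. ALS2CL, a RAB5 regulator, was 2.94-fold higher, but at a log2 ratio of 0.88 with the trends removed. RGP1, a subunit of the RAB6 GEF, was at 3.95 FPKM and 9.55 FPKM, 2.42-fold lower (2.08 to 2.83), and TRAPPC11 was at 1.56 and 5.40 FPKM, 3.47-fold lower. DENND5A and RGP1, both partners of RAB6, thus went in opposite directions.

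Of 38 measured GAPs, 32 passed and 1 was higher, none lower (3.12% past 2-fold, against 15.5% of all genes), around a median of 0.13. Both shares depend on the pseudocount of 1 FPKM, and several GAPs were weakly expressed. Without it EVI5 was 4.82-fold higher, TBC1D12 3.32-fold and TBC1D1 2.61-fold, and none of these was called. The GAP with the lowest log2 ratio, TBC1D14, had a fold of 0.518. TBC1D2B was at 4.35 FPKM and 1.01 FPKM, 4.32-fold higher (3.17 to 5.87). Among 9 genes of prenylation, GDI and RAB phosphorylation, 6 passed, with 1 higher (16.7%, against 15.5% of all genes past 2-fold), none lower and a median of 0.49. Such a list of 6 is too short to compare with all genes. GDI2, a GDP dissociation inhibitor, was at 95.3 and 128 FPKM. PPM1H, the phosphatase that reverses LRRK2 phosphorylation of RABs, was at 1.79 and 0.387 FPKM, just past the threshold at a log2 ratio of 1.01 and at 0.57 with the trends removed. LRRK2 itself was at 0.0125 and 0.0489 FPKM, about 0.993 and 3.97 fragments. The 2 subunits of the geranylgeranyl transferase that attaches the lipid anchors went apart within 2-fold: RABGGTA was at 16.03 and 27.02 FPKM and RABGGTB at 70.5 and 51.6 FPKM.

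Of 47 measured effectors, 35 passed, and 2 were higher and 5 lower (20% past 2-fold, against 15.5% of all genes) around a median of 0.04. RAB11FIP3, which links RAB11 to recycling endosomes and cytokinesis, was at 5.26 FPKM and 0.514 FPKM, 10.2-fold higher (6.21 to 17.4). GOLGA4, a long golgin, was 2.72-fold higher, at a log2 ratio of 0.94 with the trends removed. Of the lower ones, SNX17, a sorting nexin of integrin and LDL-receptor recycling, was at 59.8 FPKM and 220 FPKM, 3.68-fold lower (3.43 to 3.96). No RAB partner of SNX17 is given here, so it counts as an effector only by this list. The secretory effectors SYTL2, which binds RAB27, and UNC13D, the RAB27 partner Munc13-4, were 3.80-fold (2.92 to 5.01) and 4.39-fold lower, at 2.81 against 10.7 FPKM and at 0.781 against 3.43 FPKM. MYO5B, the motor of RAB11 vesicles, was at 1.43 and 4.70 FPKM, 3.29-fold lower. The fifth, the lipid-droplet and RAB9 partner PLIN3, was 2.09-fold lower, at a log2 ratio of -0.78 with the trends removed. RAB27A and both RAB11 genes were not called beside these partners. Among 9 measured RAB-like genes outside the naming rule, 6 passed and 2 were higher (33.3%, against 15.5% of all genes past 2-fold), RABL6 (19.3 and 6.19 FPKM) and IFT27, an intraflagellar transport GTPase (29.4 and 10.9 FPKM). Again, 6 genes are too few to compare with that share.

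**Figure D5:**
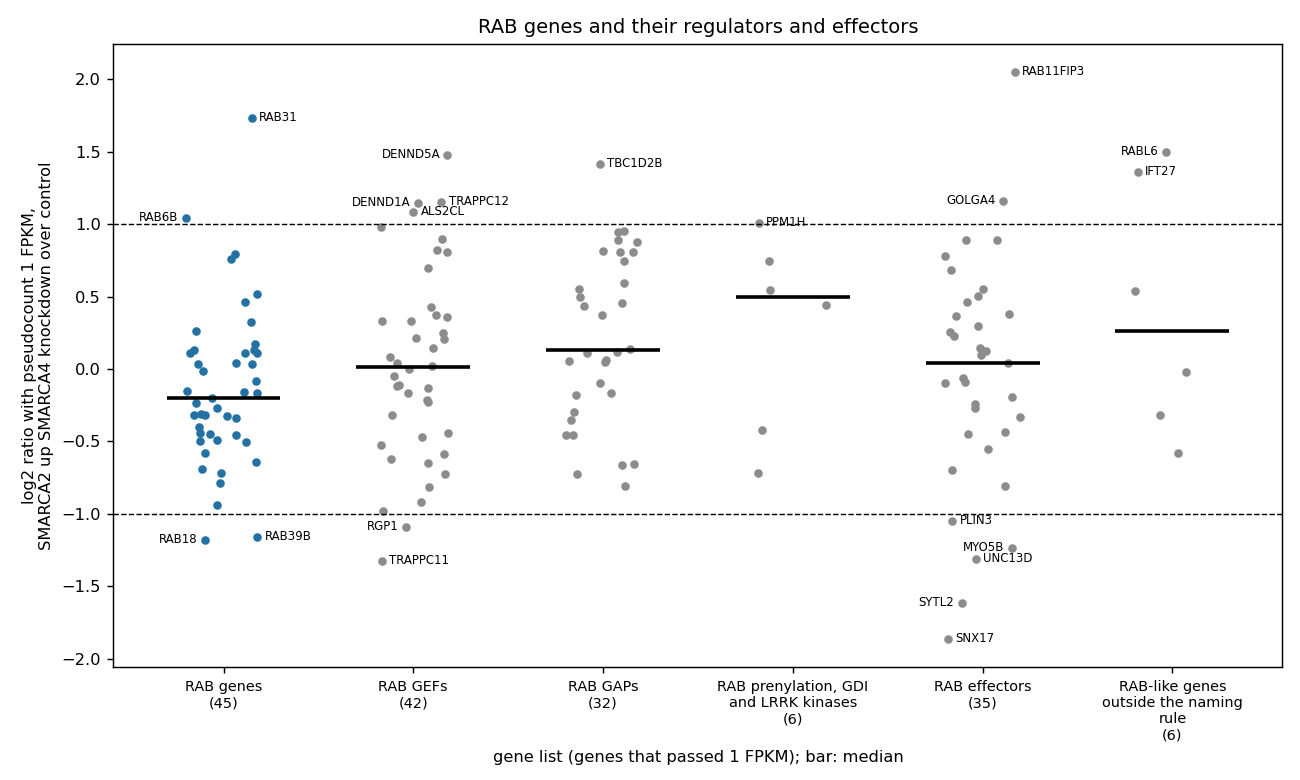
Log2 ratio (pseudocount 1 FPKM, perturbed over control) of each gene that passed, for the RAB genes and 5 lists of regulators, effectors and RAB-like genes, with horizontal position inside a list carrying no meaning and a bar at the median. Genes at or past the dashed lines at 1 and -1 are named. RAB11FIP3 is the highest, at 2.05, and SNX17, an effector only by this list, the lowest, at -1.86.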

How the data were processed

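RNA-seq of 2 libraries, 1 per group, was analysed from gene-level FPKM tables deposited by the authors. Per the labels' protocols, RNA was purified with a Qiagen kit, cDNA made with SMART-Seq HT and libraries with Nextera XT, which do not mark strand. Listed are hg19, Cuffdiff 2.2.1, TopHat2 2.1.1, SAMtools 0.1.18 and Bowtie2 2.2.8, per the submitters' processing notes, which give no roles. The sources used here do not state annotation, filters or scaling between libraries. Transcript lengths, GC content and coding sequences came from GENCODE 29 (GRCh38), from RefSeq-matched transcripts (93.1% of genes that passed, all 45 RAB genes), using the median length of a gene. Exon overlaps between genes and strands are those of GENCODE 29 and may differ in the authors' annotation; no coordinates are printed. Depth was estimated, with a length shortening of 200 bases, as the value that placed most genes at 1 fragment, over genes with 1 matched transcript of at least 300 bases. The scripts were tested on simulated data. The protein identity is over the shorter protein of a global alignment (Biopython 1.88). Named genes were those past the rule of size, the 2 most abundant of each role group, the 4 nearest each threshold and paralog pairs (70% identity or more) apart by 1 or more; of the other lists, up to 4 genes per direction past the rule. Further RAB genes and partners are given to account for the family and were chosen after their values were seen. The members and lists were chosen with earlier results of these data known. Alternatives were other pseudocounts, scalings, filters and rules of size, and removal of cubic trends on length, GC and level. RAB7B was not analysed here, and 1 gene of the prenylation and GDI list is not reported here. Analysis used Python 3.11.15 with pandas 2.3.3, NumPy 2.4.6 and SciPy 1.17.1.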

Additional observations from a re-analysis of the deposited data

How the results depend on the processing

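Of 186 comparisons of the log2 ratios of 24 named RAB genes with an alternative, 180 kept their side of the threshold and 6 lost a call. Most of the 180 were uncalled genes that stayed uncalled, and all 6 losses fell on the 4 called genes. The 186 leave out genes that failed a stricter filter and the other rules of size. None of the 4 called genes changed sign. With a pseudocount of 5 FPKM, 0 RAB genes were higher and 0 lower. With 5 FPKM in a library, 0 were higher, since RAB31 and RAB6B never reach it, and with 1 FPKM in both libraries 1 was, RAB31 being under 1 FPKM in the control. After trends against level, GC and length were taken out, 1 was higher (RAB31) and 1 lower (RAB39B), and the median was -0.094 instead of -0.20; over all genes 726 were then higher and 694 lower, and the median moved from -0.059 to -0.0013. At 1.5-fold 4 were higher and 7 lower, and at 4-fold 0 and 0. The same 4 genes were called with a pseudocount of 0.1 FPKM, without a filter, with libraries scaled to a common sum and with ratios centred on the median. Scaling and centring moved the share of higher genes among all genes past 2-fold from 50.8% to 64.7% and 62.9%. Over all genes, the 925 higher and 897 lower became 1630 and 1267 with a pseudocount of 0.1 FPKM, 219 and 380 with 5 FPKM, 2253 and 2505 at 1.5-fold, 71 and 84 at 4-fold, 546 and 694 with 5 FPKM in a library, and 557 and 700 with 1 FPKM in both. No paired analysis was possible because each group has 1 library, and for the same reason no replicate could be left out. Depth limits the genes under 1 FPKM: most of their ratios rest on a few fragments.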
